A study of Mus musculus with 4 samples.

Results

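The genes described here encode the 3 transforming growth factor beta (TGF-beta) ligands and the proteins that cut, anchor or bind their latent form. They are Tgfb1, Tgfb2, Tgfb3, Furin, Lrrc32, Nrros, Ltbp1, Ltbp3, Ltbp4 and Nrp1. They were chosen by symbol and not by level, though with earlier results of these data known. All 10 were found among the 50600 genes listed. RNA was sequenced from regulatory T cells, which hold other lymphocytes in check, taken as primary cells of the C57BL/6NJ mouse strain in 4 biosamples (replicates 1 to 4). These form a single group with no genetic change or treatment in the labels, and with sex and age not given, and no other cell type or treatment was set against them. The labels tie all 4 biosamples to a shared donor record and link a protocol for CD4+ T cell differentiation, and the names of the aligned files carry the words activated and 48h. They do not say whether the biosamples were separate animals or cultures, so a p-value measures only how these libraries vary, and some of that spread may be technical.

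TGF-beta is made as a precursor that furin cuts into a propeptide and a mature growth factor, and the propeptide stays wrapped around the mature dimer and keeps it latent. The latent complex is tethered by a disulfide-linked partner. That partner is a latent TGF-beta binding protein (LTBP) in the extracellular matrix, GARP (encoded by Lrrc32) on regulatory T cells and platelets, or its relative LRRC33 (encoded by Nrros) on macrophages and microglia. Integrins that recognise an arginine, glycine and aspartate motif in the propeptide pull the growth factor free, and neuropilin 1 (Nrp1), a surface receptor for semaphorins and vascular growth factor, also binds latent TGF-beta and is known in mice as a marker of thymus-derived regulatory T cells.

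The cells carried transcripts of 1 ligand, its convertase, both membrane anchors and the neuropilin, while the matrix anchors and the other ligands were near or below the threshold. Tgfb1 averaged 302 ± 7.0 TPM and Furin 397.0 ± 32.9 TPM, Lrrc32 66.4 ± 4.84, Nrp1 53.3 ± 2.35 and Nrros 48.8 ± 1.00 (mean ± SD, n = 4 libraries). TPM values are counts per exon base, rescaled to a fixed sum in each library, so that levels of different genes can be set side by side. Expressed means a TPM of 1 or more in every library, which 5 of the 10 genes met, against 47.2% of all 21764 protein-coding genes. The 10 genes therefore passed the threshold about as often as protein-coding genes at large. The same 47.2% stands beside each count of expressed genes in the lists below.

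**Figure D1:**
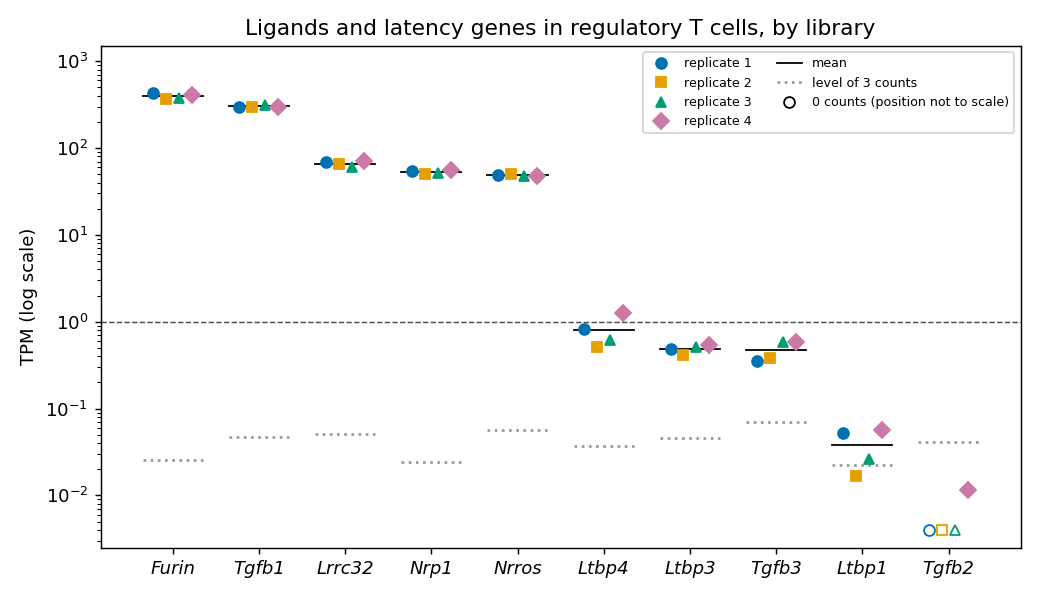
TPM of each gene (log axis) in replicates 1 to 4, ordered by mean, with the mean as a line, the TPM of 1 as a dashed line and the level of 3 counts as a dotted line. Furin, Tgfb1, Lrrc32, Nrp1 and Nrros lie far above the threshold in every library, Ltbp4 crosses it in replicate 4 alone, and Tgfb2 has 1 count in replicate 4 and 0 elsewhere.

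The libraries held 43821767 to 73819468 counts, and the median coefficient of variation of expressed genes was 6.52%. All 8 markers of regulatory T cells on the list were expressed, with Foxp3, the factor that defines the lineage, at 289 ± 23.5 TPM and Il2ra, Tnfrsf4 and Tnfrsf18 the highest, at 1488 ± 19.4, 1190 ± 15.4 and 580.2 ± 18.2 TPM. All 6 T cell markers were expressed, with Trac, Lck and Cd4 the highest at 1053, 785 and 611 TPM on average and Cd3e at 171 TPM. B cell markers summed to 3.17 to 4.01 TPM, of which Cd79b made up 3.11 ± 0.466 TPM, while Cd79a averaged 0.395 and Ms4a1 0.0151 TPM. Sex-linked genes set the libraries apart in pairs, so the 4 libraries did not all come from 1 animal, whatever the shared donor record stands for. Xist, the RNA of X inactivation, had 172, 145, 0.255 and 0.367 TPM in replicates 1 to 4, and the Y-linked Ddx3y had 0.152, 0.0781, 45.1 and 45.0 TPM. In a bulk sample, fewer cells that transcribe a gene and less RNA per cell cannot be told apart.

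Among the ligands, Tgfb1 (ENSMUSG00000002603.15, chr7:25687002-25705077 of mm10, plus strand) supplied nearly all transcripts. It encodes the TGF-beta that prevails in the immune system. Its TPM was 300.4, 294.4, 311.3 and 300.6 in replicates 1 to 4, from 19132, 25594, 33974 and 22831 counts. The coefficient of variation of 2.32% was below the median of expressed genes, and 94.5% of expressed protein-coding genes lay lower.

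Tgfb2 (ENSMUSG00000039239.14, chr1:186622792-186705989, minus strand) encodes a ligand best known from heart, eye and skeletal development. A single fragment was counted for it, in replicate 4, or 0.0115 TPM, and replicates 1 to 3 had 0 counts. Counts of 0 still allow 0.0410, 0.0300 and 0.0239 TPM in replicates 1 to 3, the level of 3 counts at each depth. Over all 4 libraries 101531 Tgfb1 counts stood beside that 1 count, a ratio per exon base of 116614 with a 95% exact counting interval of 20929 to 4.61e+06. Such intervals and limits cover counting error only, since PCR copies of a fragment do not count separate molecules.

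Tgfb3 (ENSMUSG00000021253.6, chr12:86056744-86079041, minus strand), which encodes the ligand needed for fusion of the palate, was detected in every library below the threshold. It had 15, 22, 43 and 30 counts, or 0.351, 0.377, 0.587 and 0.588 TPM, in replicates 1 to 4. Replicates 3 and 4 were higher than replicates 1 and 2, and these are the same pairs that Xist and Ddx3y set apart. The exact counting intervals of all 4 overlapped, from 0.425 to 0.791 TPM in replicate 3 and from 0.196 to 0.579 TPM in replicate 1. The part of the sex-linked split in this pattern was not tested.

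Tgfb1 thus made up 99.88%, 99.87%, 99.81% and 99.80% of the TPM of the 3 ligands in replicates 1 to 4, or 99.8 ± 0.0417%. The ratio of Tgfb1 to Tgfb3 was 856, 781, 530.3 and 510.8 in the same order. It varied far more than Tgfb1 itself, and Tgfb3 rested on 15 to 43 counts. A wider list of 15 other genes named for the TGF-beta superfamily had 3 expressed members, and its median gene had 0.131 TPM, against 0.691 TPM for all protein-coding genes. Gdf11, a close relative of myostatin, reached 9.00 ± 1.16 TPM, and Amh, the anti-Mullerian hormone, 2.76 ± 0.356 TPM. Bmp1 at 2.57 ± 0.675 TPM encodes a metalloproteinase and no ligand, despite its name, and Inhba, a chain of activins and inhibin A, averaged 0.341 ± 0.345 TPM. Tgfb1 held 94.8 ± 0.428% of the TPM of the 3 ligands and these 15 genes together.

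The 3 ligands differ less in their growth factor than in their propeptide, and 2 short stretches of the coding sequence show what furin and the integrins act on. The sequences below are the coding strand on mm10, read from GENCODE M21 transcripts with the protein lengths of 390, 442 and 412 residues for Tgfb1, Tgfb2 and Tgfb3. Capitals mark the 4 codons of the furin motif, an arginine, any 2 residues and an arginine, directly before the growth factor, at chr7:25697226-25697255 (plus strand, exon 5), chr1:186630627-186630656 (minus strand, exon 6) and chr12:86062045-86062074 (minus strand, exon 5):
Tgfb1: cacagctcaCGGCACCGGAGAgccctggat
Tgfb2: tccagccggCGGAAGAAGCGCgctttggat
Tgfb3: ggcagtcagAGGAAGAAGAGGgccctggac

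All 3 ligands carry the motif, ending at residue 278 in Tgfb1, 330 in Tgfb2 and 300 in Tgfb3, and each is followed by 112 residues with 9 cysteines. The codons for arginine, glycine and aspartate, which integrins bind, were found in 2 of the 3 ligands, at chr7:25697133-25697159 (plus strand) and chr12:86062156-86062182 (minus strand), and are in capitals here:
Tgfb1: cccaaacgtCGGGGCGACctgggcacc
Tgfb3: gaccatggcCGTGGAGACctggggcgt

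Tgfb2 holds no such triplet of residues. Over the mature growth factor Tgfb1 was identical to Tgfb2 at 72.3% and to Tgfb3 at 77.7% of aligned residues, and Tgfb2 to Tgfb3 at 78.6%. Before the cleavage site the shares were 41.4%, 39.9% and 51.4% for the same pairs. The ligand with nearly all transcripts in these cells thus carries both the furin motif and the integrin motif.

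The sequences upstream of the most and the least abundant ligand gene differed in composition. These are the 250 bases before the RefSeq start (GRCm38.p6), with TATAAA and GGGCGG in capitals on either strand, for Tgfb1 at chr7:25686752-25687001 (plus strand) and Tgfb2 at chr1:186705990-186706239 (minus strand):
Tgfb1: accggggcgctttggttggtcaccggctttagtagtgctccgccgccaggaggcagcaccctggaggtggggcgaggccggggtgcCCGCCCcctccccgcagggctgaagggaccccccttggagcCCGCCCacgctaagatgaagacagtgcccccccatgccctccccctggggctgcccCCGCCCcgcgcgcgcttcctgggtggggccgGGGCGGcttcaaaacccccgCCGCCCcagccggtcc
Tgfb2: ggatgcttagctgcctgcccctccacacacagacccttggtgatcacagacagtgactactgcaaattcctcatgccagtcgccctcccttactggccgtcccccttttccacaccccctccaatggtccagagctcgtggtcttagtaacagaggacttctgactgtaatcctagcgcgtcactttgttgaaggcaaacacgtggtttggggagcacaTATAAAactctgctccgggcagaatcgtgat

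The Tgfb1 window had 75.2% G and C, 5 matches to GGGCGG and none to TATAAA. The Tgfb2 window had 53.6% G and C, no match to GGGCGG and 1 match to TATAAA, whose first base lies at -31 from the start. Of 32851 such windows in the table, 32.7% hold GGGCGG and 12.4% hold TATAAA on either strand, and the median G and C content was 52.4%. The table has 12 windows for 8 of the 10 genes. Ltbp4, which was below the threshold, had 3 to 7 matches to GGGCGG in its 3 windows. Furin, the most abundant of the 10, had 2 matches to GGGCGG and none to TATAAA at chr7:80402813-80403062. At chr7:80405437-80405686 it had 1 match to TATAAA, first base at -23, and none to GGGCGG. The windows of the expressed Nrros and of Ltbp1 and Ltbp3, below the threshold, held neither motif. Whether either motif goes with level was not tested.

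Furin (ENSMUSG00000030530.15, chr7:80388585-80405436, minus strand), the convertase that cuts the TGF-beta precursors and many other proteins in the secretory pathway, was the most abundant of the 10 genes. It had 435.9, 364.8, 375.3 and 412.0 TPM in replicates 1 to 4, from 50524, 57728, 74578 and 56966 counts. Replicate 1 was the highest and replicate 2 the lowest, and 96.4% of expressed protein-coding genes lay below the mean. The ratio of Furin to Tgfb1 was 1.45, 1.24, 1.21 and 1.37 in replicates 1 to 4, so that Furin exceeded Tgfb1 in every library.

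Of the 9 proprotein convertases, 4 were expressed, against 47.2% of all protein-coding genes. Furin held 79.8%, 78.0%, 78.4% and 78.9% of the TPM of the 9 in replicates 1 to 4. Mbtps1, the site 1 protease that activates sterol regulatory factors, averaged 52.6 ± 1.33 TPM. Pcsk7, a widely expressed convertase of the secretory pathway, averaged 38.9 ± 2.75 TPM. Furin was 7.54 ± 0.447 times as abundant as Mbtps1 and 10.2 ± 0.275 times as abundant as Pcsk7 per exon base. Chosen after their values were seen, Pcsk5 and Pcsk6, the relatives that also cut growth factor precursors, had 0 counts in all 4 libraries.

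Both membrane anchors were expressed. Lrrc32 (ENSMUSG00000090958.2, chr7:98489283-98502181, plus strand) encodes GARP, which holds latent TGF-beta on the surface of activated regulatory T cells. It had 69.2, 64.9, 60.3 and 71.1 TPM in replicates 1 to 4, with replicate 3 the lowest. Nrros (ENSMUSG00000052384.13, chr16:32142785-32165594, minus strand) encodes LRRC33, the anchor best known from myeloid cells. It had 48.9, 50.2, 48.0 and 48.3 TPM in the same order, and its coefficient of variation of 2.06% was below the 6.52% of the median expressed gene.

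Lrrc32 exceeded Nrros in all 4 libraries and the ranges did not overlap. The ratio was 1.42, 1.29, 1.26 and 1.47 in replicates 1 to 4, a mean log2 ratio of 0.44 ± 0.11, with p = 0.13 when the signs were flipped in an exact two-sided permutation test. No smaller p can be had from 4 libraries. The encoded proteins, of 663 and 721 residues, were identical at 37.9% of the aligned residues. Macrophage markers, listed because Nrros is known from those cells, summed to 1.49 to 2.77 TPM per library. Of these 10 markers Adgre1 was expressed at 1.30 ± 0.328 TPM. Cx3cr1, a chemokine receptor, averaged 0.519 ± 0.144 TPM with counts in every library, Cd14 0.0682 ± 0.0880 TPM and Csf1r, the receptor on which macrophages depend, 0.0280 ± 0.0346 TPM, while Lyz2, C1qa, C1qb and Fcgr1 had 0 counts. Platelet markers, listed because Lrrc32 is known from platelets, summed to 3.83 to 4.02 TPM, with 5 of 8 at 0 counts in all libraries. Itgb3, also in the list of activators, was expressed at 3.23 ± 0.304 TPM, Itga2b averaged 0.618 ± 0.268 TPM, and Pf4, the platelet factor, had 3 counts, all in replicate 1.

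The matrix anchors were scarce. Ltbp4 (ENSMUSG00000040488.17, chr7:27305136-27337692, minus strand), which also organises elastic fibres, had 0.821, 0.512, 0.615 and 1.25 TPM in replicates 1 to 4, from 67, 57, 86 and 122 counts. Replicate 4 alone reached the threshold, and its exact counting interval of 1.04 to 1.5 TPM stood apart from those of replicate 2, 0.387 to 0.663 TPM, and replicate 3, 0.492 to 0.759 TPM. The interval of replicate 1 ran from 0.636 to 1.04 TPM. The coefficient of variation of Ltbp4 was 41.0%, against 27.2% for Tgfb3 and 11.1% for Ltbp3. Ltbp1 and Tgfb2, the genes with the fewest counts, had 51.7% and 200%.

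Ltbp3 (ENSMUSG00000024940.10, chr19:5740904-5758532, plus strand), a latent TGF-beta binder of bone and teeth, had 0.488, 0.413, 0.516 and 0.537 TPM from 32, 37, 58 and 42 counts. Ltbp1 (ENSMUSG00000001870.15, chr17:75005568-75392512, plus strand), the founding member of the family, had 7, 3, 6 and 9 counts, or 0.0529, 0.0166, 0.0264 and 0.0570 TPM. Replicate 2 was at the level of 3 counts. None of the 6 genes of the LTBP and fibrillin family was expressed, and their median was 0.0362 TPM.

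Transcripts of the membrane anchors outnumbered those of the matrix anchors. Lrrc32 and Nrros together had 118, 115, 108 and 119 TPM in replicates 1 to 4, against 1.36, 0.942, 1.16 and 1.85 TPM for Ltbp1, Ltbp3 and Ltbp4 together. The ratio was 86.7, 122, 93.5 and 64.6 per library, lowest in replicate 4, where Ltbp4 was highest. Tgfb1 was 4.57 ± 0.419 times as abundant as Lrrc32 and 6.18 ± 0.259 times as abundant as Nrros per exon base. Fibroblast markers, from cells that make LTBPs, summed to 2.90 to 4.08 TPM, with 4 of 10 at 0 counts in all libraries. Fn1 was expressed at 2.60 ± 0.639 TPM, while Pdgfrb averaged 0.517 ± 0.159 TPM and Col1a1 0.120 ± 0.0892 TPM.

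Nrp1 (ENSMUSG00000025810.9, chr8:128358604-128503363, plus strand) had 55.1, 50.4, 52.2 and 55.4 TPM in replicates 1 to 4, from 6804, 8510, 11068 and 8161 counts. The 4 libraries lay close together, at a coefficient of variation of 4.41%. Its relative Nrp2 averaged 0.217 ± 0.0138 TPM, so that Nrp1 was 247 ± 20.1 times as abundant per exon base. Of 14 neuropilin relatives, co-receptors and ligands 6 were expressed, against 47.2% of all protein-coding genes. The list's median was 0.378 TPM. Plxnd1, a semaphorin receptor, led at 66.4 ± 5.99 TPM, before Vegfa, the vascular growth factor, at 38.1 ± 4.87 TPM and the semaphorin co-receptor Plxna1 at 22.3 ± 2.73 TPM. Markers of plasmacytoid dendritic cells and endothelium, which also carry Nrp1, summed to 1.74 to 2.72 and 15.1 to 18 TPM. Of 6 plasmacytoid markers none was expressed, but Tcf4, their lineage factor, averaged 1.07 ± 0.0949 TPM, Cox6a2 0.933 ± 0.267 TPM and Ly6d 0.274 ± 0.316 TPM, while Siglech had 0 counts in all libraries. Of 8 endothelial markers Egfl7 at 8.21 ± 0.368 TPM and Pecam1 at 7.99 ± 1.10 TPM were expressed and made up most of the sum, Cdh5 averaged 0.0283 ± 0.0565 TPM, and Tek, Tie1 and Emcn had 0 counts. For the macrophage, platelet, fibroblast, plasmacytoid and endothelial lists, the part of such cells in the levels above was not tested.

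The order of the levels was Furin, Tgfb1, Lrrc32, Nrp1, Nrros, Ltbp4, Ltbp3, Tgfb3, Ltbp1 and Tgfb2. Of the 8 neighbouring pairs with counts in every library, 7 kept their order in all 4 libraries, and Ltbp3 with Tgfb3 did not. Ltbp1 also had a higher TPM than Tgfb2 in each library, but their exact counting intervals overlapped in every library. In replicate 2 Ltbp1 had 0.0166 TPM, below the 0.0300 TPM that 0 counts still allow for Tgfb2. Within single libraries the order of Ltbp1 and Tgfb2 was thus not resolved. Over all 4 libraries Ltbp1 had 25 counts and Tgfb2 had 1, and this pair was not tested. The ranges of TPM over the 4 libraries overlapped in 2 pairs, Ltbp4 with Ltbp3 and Ltbp3 with Tgfb3. The largest step was from Nrros to Ltbp4, a mean log2 ratio of 6.02 ± 0.58, and the smallest among the 5 abundant genes was from Nrp1 to Nrros, 0.12 ± 0.08. Ltbp3 and Tgfb3 differed by 0.07 ± 0.30, and Ltbp3 was higher in 2 of 4 libraries (p = 0.75 in the exact permutation test of signs). In the exact permutation test the other 7 tested pairs had p = 0.13, or 0.143 after Benjamini-Hochberg adjustment over the 8 pairs. No pair could pass 0.05 with 4 libraries. The order that formed the pairs came from the same libraries, so a steady sign within a pair is partly built in.

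Order and level depend on the length by which counts are divided. With the longest coding transcript in place of all exons, the mean of Nrp1 was 105 TPM, against 53.3 TPM, and lay above Lrrc32 at 49.4 TPM, so the log2 ratio of Lrrc32 to Nrp1 turned to -1.09, against 0.32. Tgfb1 then stood at 508 TPM, against 302 TPM, Furin at 611 TPM, against 397.0 TPM, and the log2 ratio of Tgfb1 to Lrrc32 at 3.37, against 2.19. The log2 ratio of Nrp1 to Nrros was 1.34 under that length, against 0.12. That of Lrrc32 to Nrros was 0.25 under that length, against 0.44, and 0.61 with undivided counts.

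**Figure D2:**
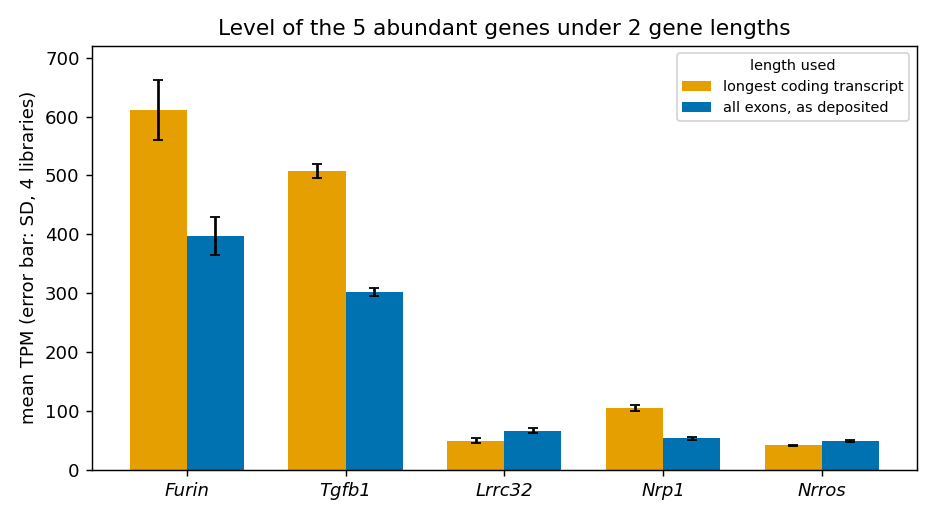
Mean TPM of the 5 expressed genes with counts divided by the longest coding transcript (left bars) or by all exons as deposited (right bars), with error bars of 1 SD over 4 libraries. Nrp1 stands at 105 and 53.3 TPM and passes Lrrc32 under transcript length, while Furin and Tgfb1 stay the highest under both lengths.

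Each library was then set against the other 3 to ask whether any of the genes stood out in 1 biosample. With a lone library on 1 side, these fits cannot show that a gene did not stand out. They left 2 of the 10 genes untested. They also had no term for the sex-linked split of replicates 1 and 2 from 3 and 4. Each lone library was thus set against libraries from both sides of that split. With edgeR's quasi-likelihood test, 9 of 12917 genes were called at a Benjamini-Hochberg adjusted p below 0.05 for replicate 1 (0.0697%), 0 for replicate 2 (0%), 3 for replicate 3 (0.0232%) and 0 for replicate 4 (0%). At an unadjusted p below 0.05 edgeR gave 876 genes for replicate 2 and 322 for replicate 4, and DESeq2 called 28 and 0 genes after adjustment. With another library left out, edgeR called from 2 to 341 genes. The test covered 8 of the 10 genes, all but Tgfb2 and Ltbp1, and 0 of their 32 comparisons were called.

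Among Tgfb1, Furin, Lrrc32, Nrros and Nrp1 the largest difference of a library from the others was that of Lrrc32 in replicate 3, 60.3 TPM against a mean of 68.4 TPM in the others. Replicate 3 lay below the range of the others there, and the log2 difference was -0.18 (SE 0.09), with a Benjamini-Hochberg adjusted p of 1.00 in edgeR. Furin had 435.9 TPM in replicate 1, against a mean of 384.1 TPM in the others, a log2 difference of 0.18 (SE 0.07), with a Benjamini-Hochberg adjusted p of 0.384 in edgeR. Replicate 1 lay outside the range of the others for Furin. Without replicate 4 the difference was 0.23 (SE 0.06) and was called, with an adjusted p of 0.0165 in edgeR, against 0.372 to 0.791 in the other alternatives. Ltbp4 had 1.25 TPM in replicate 4, against a mean of 0.649 TPM in the others, a log2 difference of 0.96 (SE 0.39), with an adjusted p of 1.00 in edgeR and of 0.601 to 1.00 over the alternatives.

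**Figure D3:**
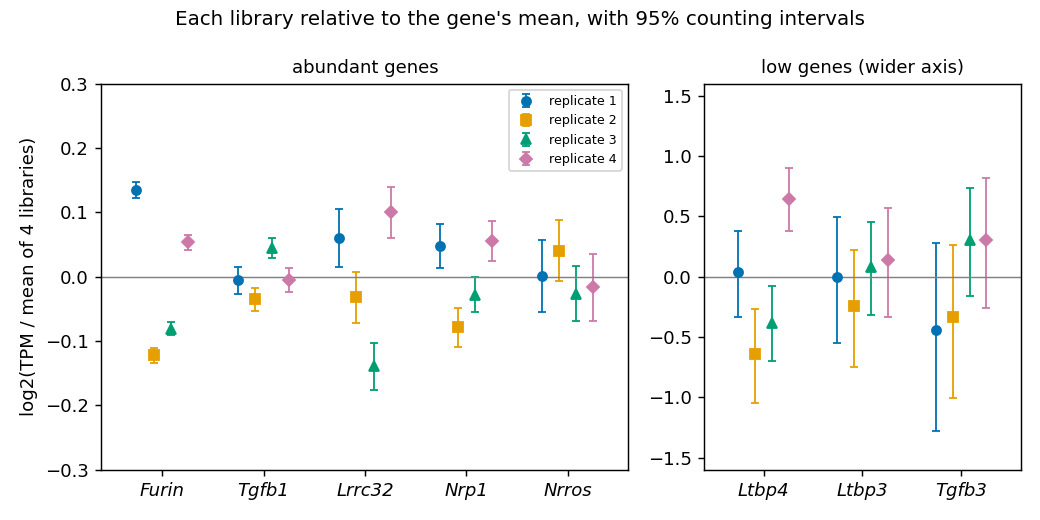
Log2 of each library's TPM over the gene's mean of 4 libraries, for the 5 expressed genes (left) and Ltbp4, Ltbp3 and Tgfb3 (right, wider axis), with 95% exact counting intervals. Furin is highest in replicate 1, Lrrc32 lowest in replicate 3, Nrros flat in all 4, and Ltbp4 highest in replicate 4.

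Partners that act on the latent complex differed widely in level. Of 13 genes that activate latent TGF-beta, 7 were expressed, against 47.2% of all protein-coding genes. The median of the 13 was 2.23 TPM. The integrin chain Itgb1 averaged 234 ± 2.18 TPM, Itgav, the alpha V chain that binds the motif in the propeptide, 22.5 ± 0.686 TPM, and Plau, the urokinase that makes plasmin, 4.44 ± 0.613 TPM. Named after its value was seen, Itgb8, the beta chain known to activate TGF-beta on regulatory T cells in mice, had 0.0430, 0.0577, 0.0626 and 0.0300 TPM in replicates 1 to 4. It was below the threshold in every library. Itgb6, its epithelial counterpart, had 0 counts, likewise named after the fact. So did Plg, which encodes the precursor of plasmin and was also named after its value was seen.

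Chaperones and folding enzymes of the endoplasmic reticulum were all expressed, 8 of 8, with a median of 536 TPM. Hsp90b1, which encodes gp96, the chaperone that GARP needs to reach the surface, averaged 525 ± 19.6 TPM. Calr, a calcium-binding chaperone, reached 885 ± 24.9 TPM, the disulfide isomerase P4hb 655 ± 14.7 TPM and its relative Pdia3 583 ± 25.0 TPM. Of 8 secreted proteins that bind TGF-beta or activin, 2 were expressed, Emilin1, which blocks processing of the precursor, at 8.20 ± 1.25 TPM and the proteoglycan Bgn at 5.98 ± 1.68 TPM. Fstl3, an activin binder, averaged 0.772 ± 0.139 TPM, and Dcn, the proteoglycan decorin, had 0 counts. Of 13 receptors and Smad pathway genes 12 were expressed, led by the repressor Ski at 154 ± 6.92 TPM, the type 1 receptor Tgfbr1 at 107 ± 2.07 TPM and Skil, a relative of Ski, at 96.4 ± 2.86 TPM.

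**Figure D4:**
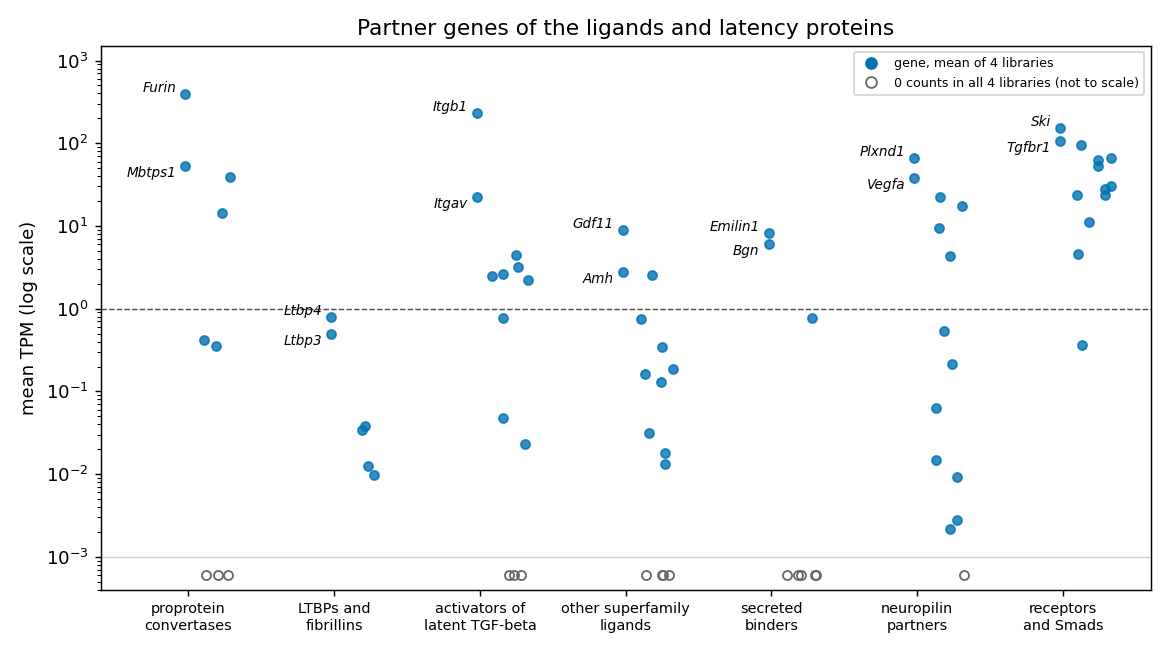
Mean TPM over 4 libraries (log axis) of each gene in 7 partner lists, with the leading genes of each list named and genes with 0 counts in all libraries as open circles at the foot, not to scale. Furin stands apart from the other convertases, and every LTBP and fibrillin lies below the dashed line at a TPM of 1.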

How the data were processed

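The genes and lists were chosen with earlier results of these data known. Per the file headers, the authors counted whole fragments with featureCounts 1.4.6-p4 over mm10 alignments and GENCODE M13 genes; the headers also record paired, reverse-stranded counting of exons. The labels name total RNA beside a protocol for polyadenylated RNA. Multimapping fragments were left out under these settings, which can lower the counts of genes with close copies. Opposite-strand genes are told apart by the strand setting.

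From the deposited counts and exon lengths TPM was computed for every gene. Symbols came from GENCODE M21 and matched 50376 of 50600 identifiers. Exact Poisson intervals are at 95%, and a limit is 3 counts. The exact sign-flip permutation test has 16 patterns. Each library was set against the other 3 in edgeR 4.0.16 (TMM, filterByExpr for 1 group, quasi-likelihood test, Benjamini-Hochberg at 0.05), which assumes that the lone library varies like the others. DESeq2 1.42.0 was an alternative. The TPM formula and the edgeR fit for replicate 1 were tested on simulated data, and the sign-flip count on a known example. Other steps had no such test. Protein identity came from pairwise alignment in Biopython 1.88. All 10 genes are named, and from each other list the 3 highest and the first-listed gene; exceptions are marked, and markers of other cell types with 0 counts are named outside this rule. A listed marker is not reported here. Exons shared with an opposite-strand gene made up at most 4.82% of any of the 10.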

Additional observations from a re-analysis of the deposited data

Results flagged for a closer look

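The ratio of Tgfb1 to the sum of Lrrc32 and Nrros was 2.88 in replicate 3, against 2.54, 2.56 and 2.52 in replicates 1, 2 and 4. Its gap to the nearest library was 0.888 of the whole range, above Dixon's 95% limit for 4 samples. In replicate 3 Tgfb1 was the highest of the 4 libraries and Lrrc32 and Nrros were both the lowest. This was the only one of 69 values tested in which a library stood apart in this way, and chance alone flags about 1 in 20.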

How the results depend on the processing

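No paired analysis was possible because all 4 libraries belong to 1 group. The number of expressed genes among the 10 was 5 with FPKM, with a threshold of 5, with protein-coding genes only in the sum and without each replicate, and 6 at a threshold of 0.5. Dividing by the longest coding transcript put Tgfb1 at 99.93% of ligand TPM and Furin at 80.9% of convertase TPM, and undivided counts gave 99.89% and 81.9%. The log2 ratio of Lrrc32 to Nrp1 was -1.09 with transcript lengths. That of Ltbp3 to Tgfb3 was -0.061 without replicate 1 and at most 0.16 without another replicate. The number of genes called for a library varied with the setting. Without the expression filter it was 105, 60, 35 and 16 for replicates 1 to 4, and DESeq2 called 18, 28 and 8 genes for replicates 1 to 3. For replicate 1 it was 112, 23 and 341 without replicates 2, 3 and 4, and for replicate 2 it was 52, 3 and 9 without replicates 1, 3 and 4. For replicate 3 it was 16, 17 and 21 without replicates 1, 2 and 4, and for replicate 4 it was 2, 2 and 9 without replicates 1, 2 and 3. The fits had no term for the split of Xist and Ddx3y between replicates 1 and 2 and replicates 3 and 4. Leaving out the other library of the same side sets a lone library against the opposite side alone. The part of this split in the counts was not tested, nor was any other cause. Depth limits Tgfb2, Ltbp1 and, less so, Tgfb3, and transcripts of single isoforms cannot be told apart in gene counts.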
